A study of Mus musculus with 4 samples.

Results

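The genes described here carry out antigen presentation on major histocompatibility complex (MHC) class I and class II molecules. They were chosen from a list of 32 names, 19 of class I and 13 of class II, by taking every probe set whose array annotation names only 1 gene and that gene is on the list. This gave 64 of the 45037 probe sets of the array, for 29 of the 18193 genes that such probe sets name, 17 of class I and 12 of class II. H2-DMb1, H2-T23 and Psme2 have only probe sets that also name another gene. The cells were mouse macrophages grown from bone marrow precursors for 7 days with 20% L-cell conditioned medium, treated overnight with 100 U/ml interferon-gamma as priming and washed. They were then stimulated for 2 h with lipopolysaccharide (LPS, a bacterial cell wall component) at 10 ng/ml, which the series calls classical activation, or with the same LPS plus immune complexes, antibody bound to antigen (LPS_IC in what follows), named type II activation there. There were 2 arrays per group, and the labels give neither the mouse strain nor whether replicates were separate cultures, so p-values reflect only how these samples varied, which may be technical variation. The labels give the priming time as 16 h for the LPS arrays and give no number of hours for the LPS_IC arrays. Both groups were primed with interferon-gamma and given LPS, so no array shows the level of these genes without either agent.

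Class I molecules display peptides cut by the proteasome in the cytosol, carried into the endoplasmic reticulum by the TAP transporter and loaded there with the help of tapasin and chaperones. Class II molecules display peptides from endocytosed proteins, including antigen taken up as immune complexes through Fc gamma receptors, after the invariant chain has been degraded and exchanged for peptide with the help of H2-DM. Interferon-gamma induces both sets in macrophages, class II genes through the coactivator CIITA, which binds the RFX factors on their promoters, and class I genes in part through the related coactivator NLRC5.

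Values are MAS 5.0 signals, a linear brightness per probe set and array, and a signal of one probe set cannot be set against that of another. The arrays share a trimmed mean signal of 500.0 but not a distribution. LPS_IC replicate 1, the first array with immune complexes, had a median signal of 155.8 and a 99th percentile of 13917, against medians of 68.4 to 88.6 and 99th percentiles of 16180 to 16982 on the other arrays. Log2 fold changes are of signal + 32 and compare LPS plus immune complexes with LPS, and each is given ± its limma standard error (SE, n = 2 arrays per group). All 8 listed macrophage markers were above the filter on low signal, and their summed signal was 152219 and 186681 with LPS against 133083 and 150409.9 for LPS_IC. Of these 8, 6 had a log2 fold change below 0, with a median of -0.23, and Mertk, a receptor for apoptotic cells, was the lowest at -1.03 ± 0.46 (unadjusted limma p 0.0446, adjusted p 1). The neutrophil marker S100a8 had LPS signals of 540.8 and 504.7 and LPS_IC signals of 871.3 and 1138, with a log2 fold change of 0.89 ± 0.39 (unadjusted limma p 0.0424, adjusted p 1). The summed signal of 7 measured neutrophil markers, with S100a8 the brightest on every array, was 959.7 and 1013 against 1575 and 1580.1. Of the 4 tested neutrophil markers 2 lay above 0 and 2 below, with a median of 0.03. The part of these marker differences in the results was not tested. Of 7 measured dendritic cell markers none read above 311.0, and of 7 measured B cell markers none above 284.6. Of 5 measured T and NK cell markers none read above 255.1, and of 8 measured fibroblast markers none above 335.8. Each of these lists had its highest summed signal on LPS_IC replicate 1. Values above 0 were found for 3 of 5 tested dendritic cell markers, 2 of 3 B cell markers and all 4 fibroblast markers (median 0.41). The only tested T and NK cell marker, Cd8a, had 1.55 ± 0.84. The part of these differences was not tested either.

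No antigen presentation gene passed the test at 2 h of stimulation. Of the 64 probe sets 63 were bright enough to test, and limma called 0 of them at a Benjamini-Hochberg adjusted p under 0.05, against 14 of 27022 tested probe sets (0.0518%). By gene the counts were 0 of 29 and 8 of 12891 (0.0621%). A fit that blocks on the replicate number also called 0 members, against 2.48% of tested probe sets. At an unadjusted limma p under 0.05 the count was also 0 of 63, against 2.81% of all tested probe sets, and the lowest unadjusted member p was 0.0893. By each gene's brightest tested probe set, 28 of the 29 genes differed by less than 1.5-fold between the groups, the exception being Rfxap. The log2 fold change was below 0 for 15 of 17 class I genes, with a median of -0.24, and for 11 of 12 class II genes, with a median of -0.21. Over all 12891 tested genes the median was 0.05 and 45.9% lay below 0. After quantile normalization, which gives all arrays 1 distribution, the medians were -0.02 for class I, -0.12 for class II and -0.02 for all genes.

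Both LPS plus immune complexes arrays read lower than both LPS arrays for 11 of 17 class I genes and 7 of 12 class II genes, against 13.1% of all tested genes. That share went with brightness. It was 37.1% of genes with a mean signal of at least 10000, 20.8% of those from 1000 to 10000 and 8.9% of those under 1000. The opposite, both higher, held for 1 gene of each class, against 13.2% of all. With quantile normalization the groups lay apart with lower values for 3 genes of each class. The share of all tested genes under that normalization is not given, so these counts cannot be read against it.

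The chains of the class II molecule had small differences of the same sign. H2-Aa, the alpha chain of I-A, read 37866 and 40429.7 on the LPS arrays against 32032 and 31106 after immune complexes. Its log2 fold change was -0.31 ± 0.21, and the 95% interval ran from -0.76 to 0.14. H2-Ab1, the beta chain that pairs with it, had LPS signals of 27550.3 and 24387 and LPS_IC signals of 22133 and 21701 (log2 fold change -0.24 ± 0.22). H2-Eb1, the beta chain of I-E, stood at 27670.0 and 31906 under LPS alone and 24224 and 27174 with the complexes (log2 fold change -0.21 ± 0.22). For all 3 chains the groups did not overlap, with a lower reading on both arrays with immune complexes, and the fold differences were between 1.16 and 1.24. With quantile normalization the values were -0.07, -0.06 and -0.00.

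The promoters of H2-Aa and H2-Eb1 are shown because class II genes are known for a shared control region, where RFX, CREB and NF-Y family factors are known to bind beside CIITA. The stretches below, from RefSeq's GRCm38.p6 windows, run from 180 bases before the gene's start to 10 after it on the gene's strand, for H2-Aa at chr17:34287814-34288003 (minus strand) and for H2-Eb1 at chr17:34305687-34305876 (plus strand). Capitals mark a Y box (CTGATTGG), the core of an X box (AGCAAC) and a cAMP response element-like run (TGACGTC), searched on both strands, and the overlapping matches of the last one in H2-Aa form 1 run.
H2-Aa: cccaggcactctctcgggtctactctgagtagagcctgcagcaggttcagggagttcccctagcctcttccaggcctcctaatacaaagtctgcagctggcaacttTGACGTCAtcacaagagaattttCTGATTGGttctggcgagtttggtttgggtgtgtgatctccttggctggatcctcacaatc
H2-Eb1: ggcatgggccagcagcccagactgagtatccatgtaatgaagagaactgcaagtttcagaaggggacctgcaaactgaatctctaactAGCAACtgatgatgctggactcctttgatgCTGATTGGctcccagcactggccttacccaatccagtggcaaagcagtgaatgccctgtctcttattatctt
The Y box letters were found in 3 of the 8 class II genes with a promoter window (H2-Aa, H2-Eb1 and H2-Oa), in 5 of 14 class I genes and in 4.1% of all 32851 windows of 300 bases. AGCAAC was found in 4 of the 8 class II genes (H2-Eb1, H2-Oa, H2-Ob and the regulator Rfx5), 2 of the 14 class I genes and 14.8% of all windows. Only exact letters were searched, so the lack of a marked X box core in H2-Aa does not show that it has none. TGACGTC was found in 1 of the 8, in 0 of the 14 and in 3.21% of all windows. Windows were at hand for 22 of the 29 genes, and the letters describe the sequence only.

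Cd74, the invariant chain that escorts class II molecules to endosomes, read 31640.1 and 40345 on the LPS arrays against 28136 and 33583 after immune complexes. The log2 fold change was -0.22 ± 0.23 and the groups overlapped, LPS_IC replicate 2 lying above LPS replicate 1, and after quantile normalization the value was 0.03. H2-DMa, a chain of the peptide exchange factor, had LPS signals of 12759 and 17806 and LPS_IC signals of 12153 and 11632. Its groups lay apart, by a log2 fold change of -0.34 ± 0.27, with the second LPS array the highest, and the replicate 1 arrays differed by -0.07 against -0.61 for replicate 2. H2-Oa and H2-Ob form H2-DO, the inhibitor of H2-DM that is best known in B cells. H2-Oa stood at 364.4 and 274.0 under LPS alone and 394.8 and 217.0 with the complexes, and H2-Ob read 183.1 and 179.2 on the LPS arrays against 175.5 and 161.1 after immune complexes. Both were dim, with log2 fold changes of -0.10 ± 0.46 and -0.09 ± 0.50. Ifi30, the endosomal reductase GILT that opens disulfide bonds of antigens, had LPS signals of 10764 and 9763 and LPS_IC signals of 9253 and 11239 (log2 fold change -0.0075 ± 0.27, and 0.12 after quantile normalization).

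**Figure D1:**
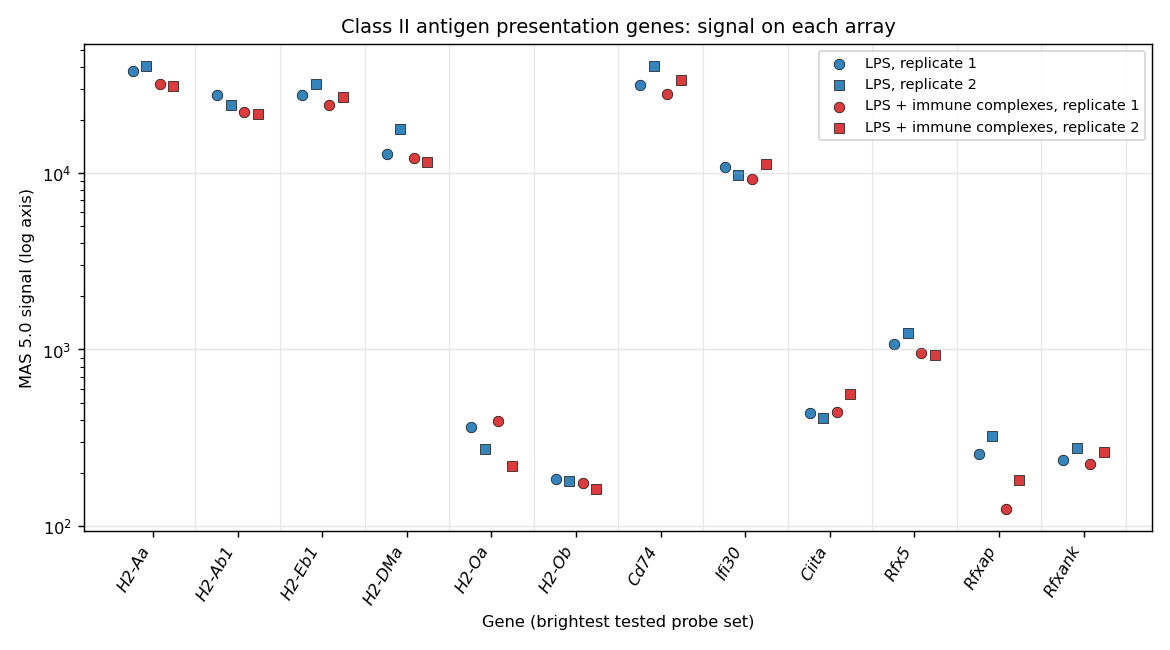
Signal of the brightest tested probe set of each class II gene on the 4 arrays, on a log axis, with blue for LPS, red for LPS plus immune complexes, circles for replicate 1 and squares for replicate 2. Points can be compared within a gene only. For H2-Aa, H2-Ab1, H2-Eb1, H2-DMa, H2-Ob, Rfx5 and Rfxap both red points lie below both blue points, and for Ciita both lie above. After quantile normalization the class II median moves from -0.21 to -0.12.

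Regulators of class II genes ranged from -0.81 to 0.22 on the log2 scale. Ciita, the master coactivator, had 3 probe sets, all with higher readings on both arrays with immune complexes. The share of such probe sets was 13.6% of all tested, and by gene 14.6% of those with a mean signal under 1000. The 3 Ciita probe sets were read on the same arrays, so they do not count as replicates of each other. The brightest stood at 435.1 and 408.6 under LPS alone and 440.3 and 559.8 with the complexes (log2 fold change 0.22 ± 0.41). The next read 226.7 and 436.3 on the LPS arrays against 611.8 and 552.3 after immune complexes (log2 fold change 0.82 ± 0.44), and the dimmest had LPS signals of 119.1 and 158.9 and LPS_IC signals of 279.8 and 234.6 (log2 fold change 0.76 ± 0.49). Unadjusted limma p-values were 0.598, 0.0893 and 0.143, and the dimmer 2 are named because their values stood out after they were seen. In replicate 1 the log2 differences were 0.02, 1.32 and 1.05, and in replicate 2 they were 0.43, 0.32 and 0.48. On the dimmer probe sets the larger difference was in replicate 1, where the array with immune complexes had the raised low signals given above, and their part in the result was not tested.

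Rfxap, a subunit of the RFX complex, stood at 256.8 and 324.7 under LPS alone and 124.6 and 182.6 with the complexes. Its log2 fold change of -0.81 ± 0.48 was the largest in size among the 29 genes, with an unadjusted limma p of 0.116 and an adjusted p of 1. The groups lay apart in both replicate numbers, by -0.88 and -0.73. A dimmer Rfxap probe set read 100.2 and 21.2 on the LPS arrays against 193.3 and 39.3 after immune complexes and had a log2 fold change of 0.60 ± 0.95, so the probe sets of this gene did not share a sign. Rfx5, the DNA-binding subunit, had LPS signals of 1069 and 1245 and LPS_IC signals of 952.7 and 935.7 (log2 fold change -0.28 ± 0.37). Rfxank, the ankyrin repeat subunit, stood at 235.5 and 277.7 under LPS alone and 224.5 and 263.1 with the complexes (log2 fold change -0.07 ± 0.45), with overlapping groups. Of the 4 class II regulators, Ciita alone had a value above 0 by its brightest probe set, and no difference between them was tested. That Ciita value was 0.08 after quantile normalization and 0.02 when each array was centred on its median. The median of all tested genes with a mean signal under 1000, where Ciita lies, was 0.16 as reported.

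Class I heavy chains and the light chain also read lower with immune complexes, by small amounts that depended on scaling: after quantile normalization H2-K1 had -0.06, H2-D1 -0.02, H2-M3 -0.29 and B2m 0.09. H2-K1 and H2-D1 encode the classical molecules that present to CD8 T cells. H2-K1 read 31217 and 40844 on the LPS arrays against 27944 and 29943 after immune complexes (log2 fold change -0.30 ± 0.22). H2-D1 had LPS signals of 27024 and 34237 and LPS_IC signals of 24427 and 26652 (log2 fold change -0.25 ± 0.23). H2-M3, a non-classical chain that presents formylated peptides, stood at 7379 and 5625 under LPS alone and 5190.3 and 4544 with the complexes (log2 fold change -0.41 ± 0.30). B2m, the light chain shared by all class I molecules, read 33851 and 35129 on the LPS arrays against 30379 and 32232 after immune complexes (log2 fold change -0.14 ± 0.21) with a 95% interval from -0.60 to 0.32. For these 4 genes the groups did not overlap.

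H2-K1 and H2-D1 are near copies, so probe sets ending in _x_at, which include the brightest of both, can bind transcripts of either and their signals cannot be assigned with certainty. Their promoters are shown here with that of B2m, since these chains form the class I molecule, over the same stretch of 190 bases in GRCm38.p6. H2-K1 lies at chr17:34000324-34000513 (minus strand), H2-D1 at chr17:35262914-35263103 (plus strand) and B2m at chr2:122147507-122147696 (plus strand). Capitals mark an NF-kB site, TGACGC, the Y box letters on the other strand (CCAATCAG) and, in B2m, an interferon-stimulated response element (ISRE, here on the other strand).
H2-K1: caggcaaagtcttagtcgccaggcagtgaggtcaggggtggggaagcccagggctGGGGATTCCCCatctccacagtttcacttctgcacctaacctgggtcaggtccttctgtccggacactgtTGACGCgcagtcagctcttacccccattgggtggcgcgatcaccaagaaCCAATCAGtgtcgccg
H2-D1: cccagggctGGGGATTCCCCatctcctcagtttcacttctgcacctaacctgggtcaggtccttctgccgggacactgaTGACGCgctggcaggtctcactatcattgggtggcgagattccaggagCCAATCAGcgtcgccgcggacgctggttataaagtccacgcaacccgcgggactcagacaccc
B2m: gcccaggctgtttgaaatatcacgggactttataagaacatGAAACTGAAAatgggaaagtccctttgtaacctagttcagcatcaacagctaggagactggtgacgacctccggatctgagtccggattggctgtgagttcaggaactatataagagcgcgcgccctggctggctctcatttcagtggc
The NF-kB letters occur in 10 of all 32851 windows (0.0304%), among them those of H2-K1 and H2-D1 and no other class I gene searched. TGACGC was found in 4 of 14 class I genes and 0 of 8 class II genes, against 7.4% of all windows. The response element letters were found in B2m, Erap1 and Psme1, against 3.44% of all windows. Variant letters were not searched, so the lack of a marked response element in H2-K1 and H2-D1 does not show that they have none.

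The 4 H2-K1 probe sets had log2 fold changes from -0.30 to -0.0094, and 2 of them separated the groups, with lower readings after immune complexes. Such a separation was found for 12% of all tested probe sets and, by gene, for 37.1% of those with a mean signal of at least 10000. Of the 9 H2-D1 probe sets 7 lay between -0.29 and -0.05. An H2-D1 probe set had LPS signals of 3099.7 and 3689.7 and LPS_IC signals of 2715 and 4373 (log2 fold change 0.03 ± 0.34). The dimmest H2-D1 probe set stood at 34.2 and 33.8 under LPS alone and 198.9 and 103.2 with the complexes (log2 fold change 1.42 ± 0.82), with both arrays above the LPS arrays.

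Genes of peptide supply and transport had log2 fold changes between -0.42 and -0.0017. Psmb8, Psmb9 and Psmb10 are the catalytic subunits that turn the proteasome into the immunoproteasome under interferon-gamma. Psmb8 read 16373 and 14922 on the LPS arrays against 12543 and 12358 after immune complexes (log2 fold change -0.33 ± 0.25). Psmb9 had LPS signals of 13861 and 10802 and LPS_IC signals of 9723 and 9666 (log2 fold change -0.34 ± 0.27). Psmb10 stood at 15322 and 17818 under LPS alone and 10834 and 14068 with the complexes, and its -0.42 ± 0.26 was the value farthest below 0 among class I genes, with an unadjusted limma p of 0.131 and an adjusted p of 1. All 3 subunits read lower on both arrays with immune complexes. Psme1, a subunit of the proteasome activator PA28, read 15391 and 18786 on the LPS arrays against 12952 and 17708 after immune complexes (log2 fold change -0.17 ± 0.26) with overlapping groups, and its sign turned after quantile normalization (0.0027) and without LPS_IC replicate 1 (0.0584). Tap1, a chain of the peptide transporter, had LPS signals of 6624 and 6884 and LPS_IC signals of 4663 and 6062, and Tap2, its partner, stood at 3728 and 4082 under LPS alone and 3115 and 3223 with the complexes. Their log2 fold changes were -0.34 ± 0.29 and -0.30 ± 0.31, and the groups lay apart for both. Erap1, the aminopeptidase that trims peptides in the endoplasmic reticulum, read 1763 and 2303 on the LPS arrays against 1638 and 2472 after immune complexes (log2 fold change -0.0017 ± 0.37, and 0.04998 after quantile normalization).

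Genes of peptide loading and of folding in the endoplasmic reticulum had log2 fold changes between -0.24 and 0.10. Tapbp, tapasin, which holds class I at the transporter, had LPS signals of 23351 and 26379 and LPS_IC signals of 20066 and 23082 (log2 fold change -0.21 ± 0.23). Tapbpl, the related peptide editor TAPBPR, stood at 1646 and 1506 under LPS alone and 1694 and 1686 with the complexes (log2 fold change 0.10 ± 0.35), and it was the only class I gene with both readings higher by its brightest probe set. Its dimmer probe set read 201.1 and 142.9 on the LPS arrays against 89.9 and 130.4 after immune complexes, in the opposite direction at -0.52 ± 0.57. The folding genes were Pdia3 (ERp57) at -0.24 ± 0.25, Calr (calreticulin) at -0.19 ± 0.28 and Canx (calnexin) at -0.04 ± 0.27 on the log2 scale. Pdia3 had LPS signals of 14169 and 15957 and LPS_IC signals of 11529 and 14044, without overlap, Calr stood at 13916 and 20423 under LPS alone and 12518 and 17502 with the complexes, with overlap, and Canx read 10008 and 8982 on the LPS arrays against 8811 and 9666 after immune complexes, also with overlap. After quantile normalization Tapbp had -0.00021, Pdia3 -0.08, Calr 0.0036 and Canx 0.0814. Nlrc5, the class I coactivator, had LPS signals of 2403 and 2811 and LPS_IC signals of 2194 and 3131 (log2 fold change 0.01 ± 0.34). Its arrays with immune complexes enclosed the LPS readings, so any difference lay within their spread, and the 95% interval ran from -0.74 to 0.76.

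**Figure D2:**
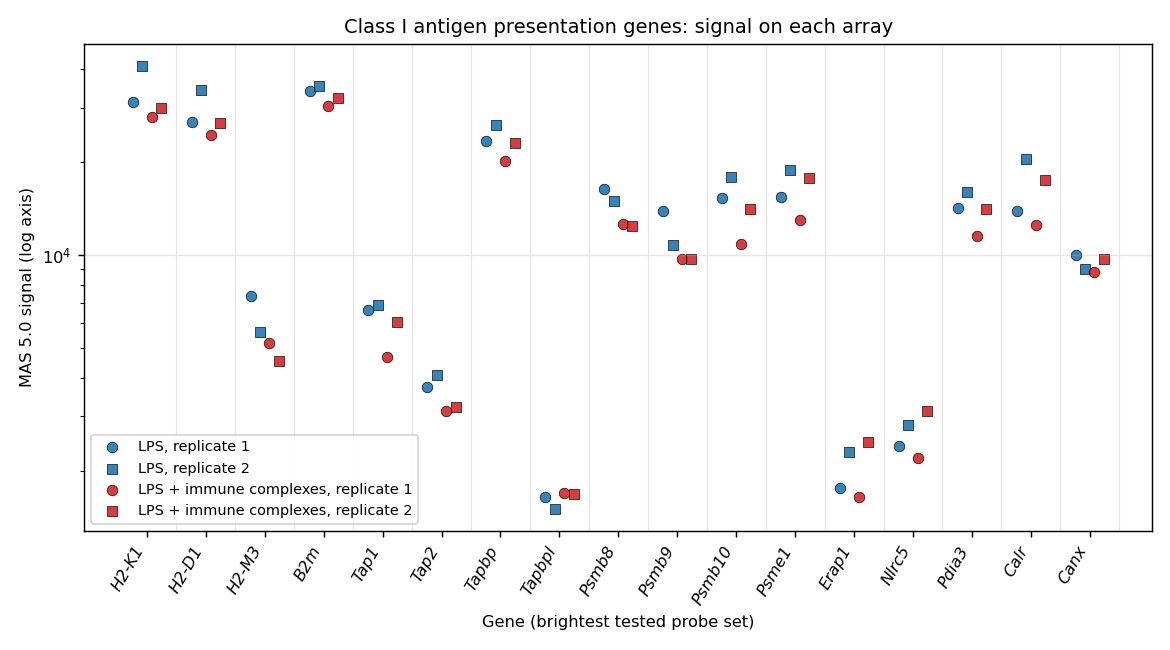
Signal of the brightest tested probe set of each class I gene on the 4 arrays, on a log axis, with blue for LPS, red for LPS plus immune complexes, circles for replicate 1 and squares for replicate 2. Points can be compared within a gene only. Both red points lie below both blue points for 11 of the 17 genes, and for Tapbpl both lie above. The share lower on both arrays was 13.1% of all tested genes and 37.1% of those with a mean signal of at least 10000. After quantile normalization both red points lie below both blue points for 3 genes, with no share of all genes given beside it.

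Of the 29 genes, 17 had more than 1 tested probe set. Among the 34 tested probe sets that do not stand for their gene, 11 had the opposite sign to the brightest one, 10 of them with a mean signal under 1000. These included Tap1 at 1.41 ± 0.90 and 0.04 ± 0.95, Rfxank at 1.10 ± 0.88, Pdia3 at 0.54 ± 0.59, Canx at 0.29 ± 0.40, Erap1 at 0.18 ± 0.42 and H2-Aa at 0.14 ± 0.41. The Tap1 probe set with the larger value stood at 57.0 and 27.1 under LPS alone and 417.8 and 50.1 with the complexes, and the Rfxank one read 22.9 and 73.2 on the LPS arrays against 267.0 and 56.9 after immune complexes, so in both the first array with immune complexes stood apart. The remaining Tap1 probe set lay below the filter, with signals of 135.3 and 10.2 (LPS) and 70.8 and 12.9 (LPS_IC).

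The direction of these differences went with brightness over the whole array. Among the 442 tested genes with a mean signal of at least 10000, the median log2 fold change was -0.19, 81.9% lay below 0, 37.1% read lower on both arrays with immune complexes and 5.88% higher. The 10 class I genes in this range had a median of -0.25, with 8 of 10 lower on both arrays, and the 6 class II genes had -0.23, with 4 of 6. The 3469 genes with signals from 1000 to 10000 had a median of -0.12, with 65.9% below 0, 20.8% lower on both arrays and 10.4% higher. The 8980 genes under 1000 had a median of 0.16, with 36.4% below 0, 8.9% lower on both arrays and 14.6% higher. The 7 dimmer class I genes had a median of -0.04, with 3 lower on both arrays, and the 6 dimmer class II genes -0.09, also with 3. The difference between members and other genes of like brightness was not tested. For single bright members the 95% intervals spanned -0.98 to 0.43 over the class I genes and -0.92 to 0.57 over the class II genes.

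**Figure D3:**
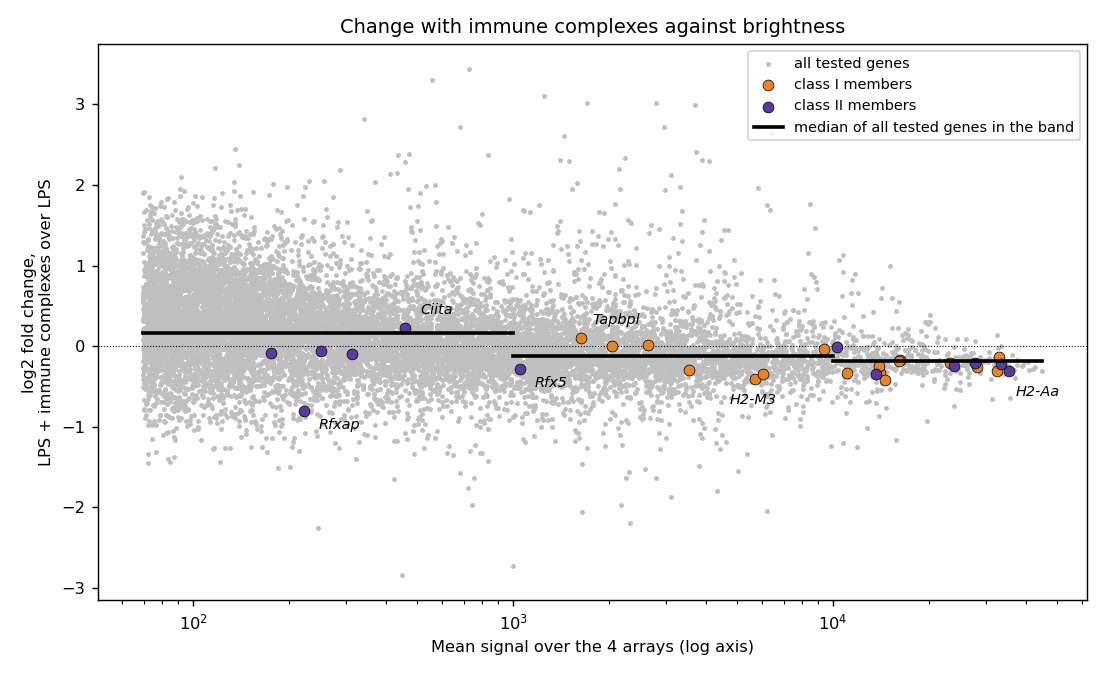
Log2 fold change of LPS plus immune complexes over LPS against mean signal on a log axis, with grey for all 12891 tested genes, orange for class I and purple for class II. Black lines give the median of all tested genes under 1000 (0.16), from 1000 to 10000 (-0.12) and from 10000 (-0.19). The bright members lie along the lower line, while Ciita lies above 0 and Rfxap at -0.81. With quantile normalization the median of the brightest genes is -0.00.

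By replicate number, the class I median difference was -0.22 in replicate 1 and -0.18 in replicate 2, and the class II median -0.17 and -0.25. Both differences were below 0 for 13 of 17 class I genes (76.5%) and 9 of 12 class II genes (75%), against 26.7% of all tested genes. These members are of every brightness. Among those with a mean signal of at least 10000, it held for all 10 class I genes and for the 6 class II genes except Ifi30. The share of all tested genes in that range was 67.6%, and the difference from it was not tested. Ifi30, H2-Oa, Erap1, Nlrc5 and Canx had differences of opposite sign in the replicates, and only Ciita and Tapbpl were above 0 in both. Leaving out LPS replicate 2 moved the class medians to -0.12 and -0.11, and leaving out LPS_IC replicate 1 moved that of class I to -0.10. Without LPS_IC replicate 2 the class I median was -0.32.

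**Figure D4:**
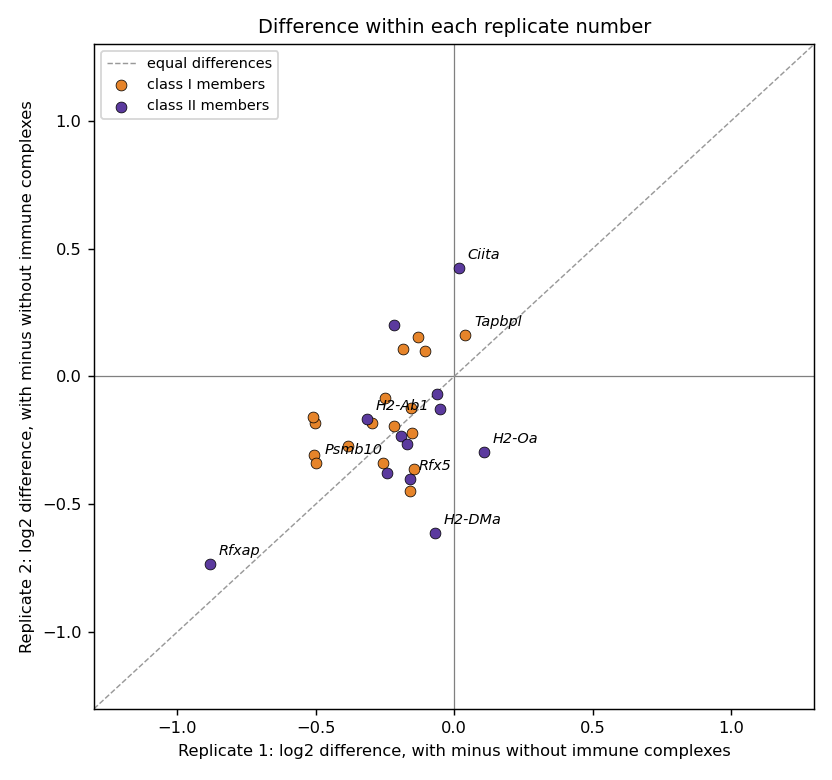
Log2 difference between the array with and the array without immune complexes in replicate 2 against that in replicate 1, for each gene's brightest tested probe set, with orange for class I, purple for class II and a dashed line for equal differences. Most points lie in the lower left, 13 of 17 class I and 9 of 12 class II, with Rfxap farthest from 0. H2-DMa lies near 0 in replicate 1 and at -0.61 in replicate 2. The values are without quantile normalization, which moves the number of genes with a mean difference below 0 from 15 to 10 for class I and from 11 to 9 for class II.

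**Figure D5:**
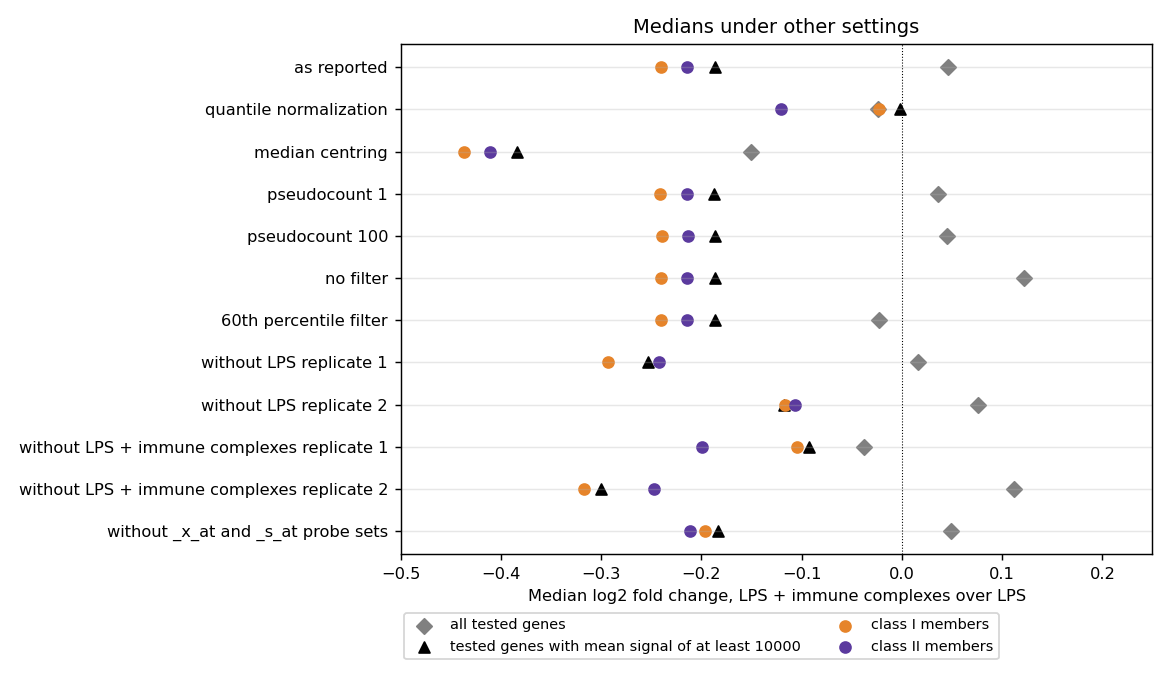
Median log2 fold change of class I (orange) and class II (purple) members, all tested genes (grey) and tested genes with a mean signal of at least 10000 (black) under the reported setting and others. Class medians stay below 0 in each setting drawn and lie within 0.12 of the bright genes' median. With quantile normalization the class I median and that of all genes are both at -0.02, while the class II median is at -0.12 and that of the bright genes at -0.00.

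The probe sets that name a member together with another gene fall outside the rule and give the only readings for 3 members. One annotated to Psme2 and Psme2b, for the other PA28 subunit, had LPS signals of 19568 and 15556 and LPS_IC signals of 13748 and 13848 (log2 fold change -0.34 ± 0.25). The brighter one of H2-T23, which encodes the Qa-1 molecule, and the pseudogene H2-T-ps stood at 26584 and 33394 under LPS alone and 22329 and 27969 with the complexes (log2 fold change -0.25 ± 0.24). The brighter one of H2-DMb1 and H2-DMb2 read 10315 and 6663 on the LPS arrays against 7198 and 5398 after immune complexes (log2 fold change -0.41 ± 0.32). Only the Psme2 probe set separated the groups, and none passed the test (limma adjusted p of 1 for each).

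Of the other genes of the pathways limma called 0 on any list, against 0.0621% of all tested genes, and 1 of them, Irf8, had an unadjusted p under 0.05. Of 34 proteasome genes outside the interferon-induced subunits 30 lay below 0, with a median of -0.18. The share below 0 was 45.9% of all tested genes, 65.9% of those with signals from 1000 to 10000 and 81.9% of those from 10000. Lower readings on both arrays were found for 11 of the 34, against 13.1% of all tested genes, 20.8% of those with signals from 1000 to 10000 and 37.1% of those from 10000. Psma6 had -0.53 ± 0.29, Psmb2 -0.48 ± 0.35 and Psmd3 -0.48 ± 0.39. Psmb7, Psmb6 and Psmb5, the subunits that Psmb10, Psmb9 and Psmb8 replace, had -0.17 ± 0.25, -0.18 ± 0.30 and -0.21 ± 0.31, against -0.42 ± 0.26, -0.34 ± 0.27 and -0.33 ± 0.25 for the replacements. Differences between these partners were not tested. Among 16 tested genes of endosomal processing and other class II chains 12 lay below 0, with a median of -0.17. The ubiquitin ligase Marchf1, which removes class II from the surface, had -0.51 ± 0.47 and read 2256 and 811.2 (LPS) and 958.6 and 925.0 (LPS_IC), so the first LPS array stood apart. The invariant chain protease Sppl2a had -0.48 ± 0.33, and H2-Eb2 0.43 ± 0.82. Cathepsin S (Ctss), which cuts the invariant chain, had -0.28 ± 0.22.

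Of 7 tested other class I chains 4 lay above 0, with a median of 0.02, and H2-Bl had -0.60 ± 0.59, H2-T3 0.43 ± 0.56 and Mr1, which presents vitamin B metabolites, 0.43 ± 0.50. The interferon-gamma signal chain had a median of -0.15 over 12 tested genes, 8 of them below 0. Irf8, an interferon-induced factor of macrophages, had -0.70 ± 0.29 with an unadjusted limma p of 0.0302, Ifngr2, a receptor chain, -0.62 ± 0.39, and Jak2, its kinase, -0.60 ± 0.31. Irf1, which drives Ciita, Tap1 and Psmb9 under interferon-gamma, read 16593 and 15305 (LPS) and 14999 and 16458 (LPS_IC) and had -0.02 ± 0.24. Among 14 other chaperones of the endoplasmic reticulum 9 lay below 0, with a median of -0.11, and Pdia6 had -0.35 ± 0.36, Uggt1 -0.31 ± 0.44 and Erp29 0.27 ± 0.38. Of 11 partners and cofactors of the class II control region 7 lay below 0, with a median of -0.19, led by Ep300 at -0.56 ± 0.38, Creb1 at -0.48 ± 0.44 and Crebbp at -0.28 ± 0.34.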

How the data were processed

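RNA of 4 macrophage samples was hybridised to 1 Affymetrix mouse array each. The deposited values are linear signal intensities that the authors made with MAS 5.0, per the submitters' processing notes, and other settings are not given in the sources used here. Signals were turned into log2(signal + 32). Probe sets with a mean signal at or above the 40th percentile (69.6) were kept, and limma 3.58.1 in R 4.3.3 (lmFit, eBayes with a variance trend) compared the groups, with p-values adjusted by the Benjamini-Hochberg method over 27022 probe sets. The script was tested on simulated data. Each gene is represented by its brightest tested probe set.

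Every listed member with a probe set of its own is named, with other probe sets that passed or differ in sign, and up to 3 genes of each further list with the largest absolute log2 fold change. Ciita's dimmer probe sets and Ctss, Irf1, Psmb5, Psmb6, Psmb7, H2-Ea, Mertk and S100a8 were added after their values were seen. The members and lists were chosen with earlier results of these data known. Alternatives were other normalizations, pseudocounts of 1 and 100, other filters, no variance trend, a replicate block, other ways of choosing probe sets and leaving out each array. The number of arrays limits the precision. Mouse chromosome 18 is not covered by the promoter search, so Cd74 is named without a promoter.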

Additional observations from a re-analysis of the deposited data

How the results depend on the processing

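No member passed limma's test at an adjusted p under 0.05 with other normalizations, pseudocounts, percentile filters, no variance trend, the replicate block or 1 array left out. Calls were not recounted for the averaged probe sets, without _x_at and _s_at probe sets or at the minimum signal of 10000. Class medians below 0 kept their sign in each, but their size depended on scaling. Quantile normalization gave medians of -0.0225 (class I) and -0.12 (class II), with or without the replicate block, 3 genes of each class lower on both arrays and 0 class I genes higher. It turned the sign of Cd74 (0.0265), Ifi30 (0.12), B2m (0.0861), Psme1 (0.0027), Erap1 (0.04998), Calr (0.0036) and Canx (0.0814). Median centring, which moved the median of all genes from 0.05 to -0.15, gave -0.44 and -0.41, 0 genes of either class higher, and turned Tapbpl (-0.10) and Nlrc5 (-0.18). Averaging a gene's probe sets gave a class II median of -0.12, 6 class I genes lower and 0 higher. Shares of all tested genes lower or higher on both arrays are not given under quantile normalization, median centring, averaging or with 1 array left out. Leaving out 1 array gave class I medians from -0.32 to -0.10, class II medians from -0.25 to -0.11, 1 to 3 class I and 1 to 2 class II genes higher. The same alternatives put H2-Oa at -0.48 to 0.29, Ifi30 at -0.15 to 0.13, Nlrc5 at -0.24 to 0.27, Canx at -0.12 to 0.0389, Rfxank at -0.17 to 0.0405, Erap1 at -0.29 to 0.29, Calr at -0.46 to 0.0889 and Psme1 at -0.39 to 0.0584, with the spread of a lone array taken from the remaining pair. The cause of these shifts was not tested. With the replicate block limma called 671 probe sets (2.48%) against 14 without it, 0 of them members, and the lowest adjusted p was 0.194 for class I and 0.16 for class II. Same-numbered arrays deviated together (r = 0.38 across probe sets), but the labels do not say what a number marks and 2 pairs do not settle it. Both the block after quantile normalization and a minimum mean signal of 10000 were chosen after seeing the data, and the minimum gave -0.25 and -0.23.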

Other observations

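H2-Ea, the alpha chain of I-E, is on the list of other class II chains and had signals of 29261 and 30933 (LPS) and 26693 and 27875 (LPS_IC), and its log2 fold change was -0.14 ± 0.21 (SE, n = 2 arrays per group). As background, this gene is not transcribed in strains of the H-2b haplotype such as C57BL/6, and the labels give no strain.

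A dimmer probe set each of Tapbp and Canx differed more between replicate numbers than between the groups. That of Tapbp had signals of 6647 and 1968 (LPS) and 4529 and 2191 (LPS_IC). That of Canx had 5025 and 1816 (LPS) and 4596 and 1812 (LPS_IC). In both genes replicate 1 was the higher in each group, whereas their brightest probe sets did not show such a gap. For Calr the brightest probe set itself differed more by replicate number, with replicate 2 the higher. Its log2 differences between replicates were 0.55 (LPS) and 0.48 (LPS_IC), against -0.19 between the groups. Over the 63 tested member probe sets, the replicate difference was larger than the difference between groups for 39.7%, against 64% of all tested probe sets. The share among probe sets of like brightness is not given, so these shares do not set the members apart.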
